A study of Homo sapiens with 4 samples.

Results

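The genes examined were those of poly(ADP-ribose) signalling, base excision and single-strand break repair, the 53BP1-shieldin and end joining pathways, and the protection of stalled replication forks, read in 4 prostate cancer cell lines. Members were taken by gene symbol from a written list of 37 genes, and 36 of them were matched among the 22637 genes of the count table. SLFN11 was not analysed here. By role, the members were 5 genes of PARP and PARG, 10 of base excision, 15 of 53BP1-shieldin and end joining, and 6 of the fork.

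LNCaP is an androgen-responsive, castration-sensitive human prostate adenocarcinoma line, from which the castration-resistant C4-2B was derived. LN-OlapR and 2B-OlapR are the olaparib-resistant sublines of LNCaP and C4-2B, each selected by long exposure to rising doses of olaparib, an inhibitor of PARP1 and PARP2. All 4 lines were untreated at harvest and had been plated for 48 hours without selection according to the series description, while the study's methods give a longer time. By those methods the resistant lines were otherwise kept in medium with olaparib, and they do not say that it was withdrawn before plating. A single library was sequenced per line, so a difference between a resistant line and its parent cannot be told apart from a difference between 2 cultures, no p-value is given, and intervals cover counting error only. Totals ran from 19950537 to 26394267 counts per library. Levels are normalized CPM, that is counts scaled to a common library size with TMM factors, and a level of 3 counts, taken as the floor, was 0.112 to 0.147 normalized CPM. Of the luminal prostate genes, HOXB13 had 381 to 507 normalized CPM in the 4 libraries, FOLH1 had 334 to 735, TMPRSS2 had 130.4 to 485 and KLK2 had 126 to 748, while the luminal keratins KRT8 and KRT18 had 259.8 to 343 and 375 to 422. KLK3 was far lower in LNCaP, at 53.1 normalized CPM, than in the other lines, at 1870 to 2685. Of the markers of other cells, KRT14 (basal) had 0.112 to 0.557 normalized CPM, SYP (neuroendocrine) 2.44 to 3.13, CD14 (immune) 0.214 to 0.579 and VWF (endothelial) 2.61 to 12.2, and the fibroblast genes COL1A1 and COL3A1 summed to 7.19 to 16.3. The other defining markers of these types were not analysed here, and the part of such cells in the results was not tested. In bulk RNA, fewer cells of a type and less RNA per cell cannot be told apart.

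PARP1 binds breaks in DNA and, with PARP2, builds chains of ADP-ribose that recruit the repair proteins of single-strand breaks. Inhibitors of these enzymes block the chains and trap the enzyme on DNA, and the lesions that remain collide with replication forks and become double-strand breaks. How such breaks are then handled depends on whether 53BP1 and its partners protect the ends for joining or allow them to be resected for homologous recombination, and on how forks are slowed, reversed and protected. Loss of PARP1, of the chain-removing enzyme PARG, or of 53BP1 or shieldin is known from other systems to alter the response to PARP inhibitors.

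Within each pair of lines most members differed little. In the 2B pair, 2B-OlapR against C4-2B, 16 of 36 members were higher in the resistant line, where 50.0% of 15527 analysed genes were higher. Their median log2 ratio of resistant to parental was -0.03 (quartiles -0.26 and 0.22), beside -0.00026 for all genes. Of the 36, 2 lay above a 1.5-fold limit and 2 below it, where 10.7% and 13.5% of all genes passed those limits. In the LN pair, LN-OlapR against LNCaP, 17 of 36 were higher beside 49.6% of 15373 genes, and the median was -0.05 (quartiles -0.26 and 0.18) beside -0.0040. Here 2 members lay above 1.5-fold and 1 below, against 10.6% and 10.8% of all genes. The counting interval lay above 0 for 12 members and below 0 for 13 in the 2B pair, where the shares of all genes were 31.5% and 30.8%. For the LN pair it lay above 0 for 13 and below 0 for 15, beside 31.7% and 31.3% of all genes. All 36 members passed the filter of a mean of 1 normalized CPM over each pair. The members ranged widely in level, from 1.27 normalized CPM for SHLD1 in C4-2B to 727 for PRKDC in the same line. Per kilobase of the longest coding transcript, the mean level over the 4 lines was highest for XRCC6, at 205 normalized CPM per kb, followed by APEX1 at 169 and PARP1 at 144, and lowest for SHLD3 at 1.40, ZRANB3 at 1.54 and SHLD1 at 2.06.

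The members that lay past 1.5-fold in a pair of lines are placed as follows in GENCODE on GRCh38, each from the start to the end of the gene. TP53BP1 lies at chr15:43403061-43510728 on the minus strand, SHLD1 at chr20:5750393-5863912 on the plus strand and XRCC4 at chr5:83077498-83353787 on the plus strand. APEX1 lies at chr14:20455191-20457772 and WEE1 at chr11:9573681-9593457, both on the plus strand, and HLTF at chr3:149030127-149086554 on the minus strand. The olaparib targets lie at chr1:226360691-226408079 on the minus strand for PARP1 and chr14:20343582-20357905 on the plus strand for PARP2.

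**Figure D1:**
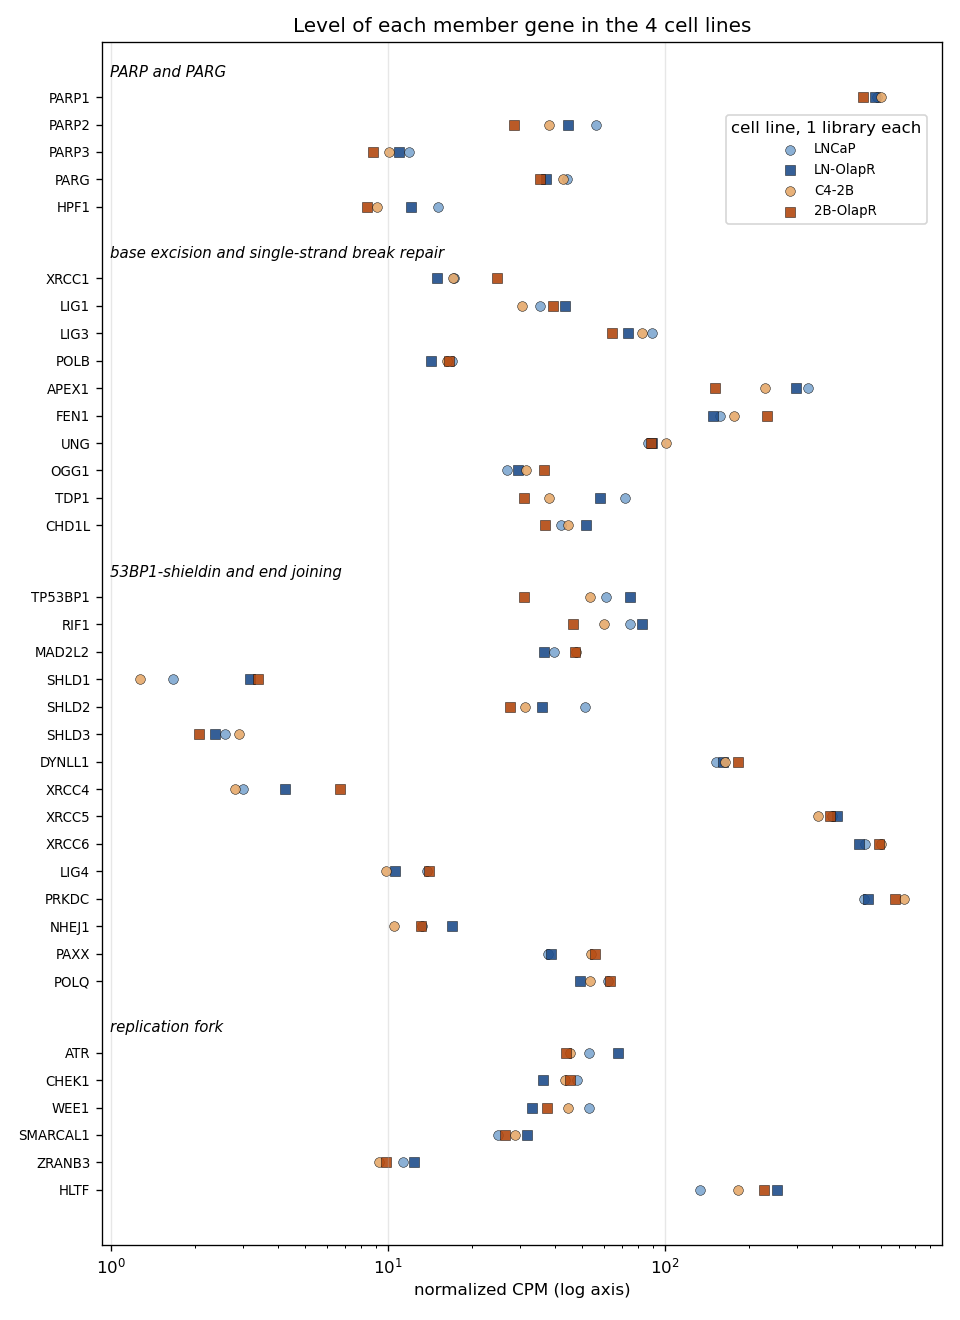
Level of each of the 36 members, as normalized CPM on a log axis, with 1 point per cell line (circles for the parental lines, squares for the resistant lines) and members ordered by role. PARP2 and TDP1 have all 4 points apart, with 2B-OlapR lowest, and both squares of SHLD1 and XRCC4 lie to the right of both circles.

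The 5 genes of PARP and PARG were all lower in each resistant line than in its parent, with a median log2 ratio of -0.26 in the LN pair and -0.21 in the 2B pair. Of the 14602 genes analysed in both pairs, 29.1% were lower in both resistant lines. None of the 5 genes reached 1.5-fold, a count of 0. The counting interval excluded 0 for 3 of 5 in each pair, and lay below 0 for these. Among all genes it lay below 0 for 31.3% in the LN pair and 30.8% in the 2B pair. It lay above 0 for a further 31.7% and 31.5%. PARP1, the main target of olaparib, had 583 normalized CPM in LNCaP against 573 in LN-OlapR, and 600.4 in C4-2B against 519.7 in 2B-OlapR. It was thus nearly level in LNCaP, LN-OlapR and C4-2B and lower in 2B-OlapR, with a log2 ratio to C4-2B of -0.21 (-0.25 to -0.17). PARP1 in the LN pair had a log2 ratio of -0.02 (-0.06 to 0.01), whose interval holds 0, but scaling by total counts gave -0.11 (-0.14 to -0.08), whose interval does not. PARP2, the second target, had 56.2 normalized CPM in LNCaP and 44.6 in LN-OlapR, a log2 ratio of -0.33 (-0.45 to -0.22). The other lines were lower, with 38.1 normalized CPM in C4-2B against 28.5 in 2B-OlapR, a log2 ratio of -0.42 (-0.57 to -0.26). Each resistant line was therefore below its own parent in PARP2, and both C4-2B lines lay below both LNCaP lines.

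PARG, which removes the chains, was at 44.3 (LNCaP) and 42.9 (C4-2B) normalized CPM in the parents, against 37.04 in LN-OlapR and 35.3 in 2B-OlapR. Both resistant lines were thus below both parents. The log2 ratio of this gene was -0.26 (-0.38 to -0.13) in the LN pair and -0.28 (-0.42 to -0.14) in the 2B pair. The share of all genes with both resistant lines on 1 side of both parents was not computed, here or for members below. The pseudogene PARGP1, with which reads of PARG can be shared, held 13 to 35 counts per library beside 731 to 1191 for PARG. HPF1, the cofactor that directs PARP1 and PARP2 to serine residues, had 15.1, 12.0, 9.09 and 8.35 normalized CPM in LNCaP, LN-OlapR, C4-2B and 2B-OlapR. The step within the LN pair was -0.33 (-0.54 to -0.11) on the log2 scale, and within the 2B pair it was -0.12 (-0.42 to 0.18), not detectable at this depth. PARP3, which acts at double-strand breaks, had 8.83 to 11.9 normalized CPM, and its interval included 0 in both pairs.

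The ratio of the counts of 2 genes in the same library does not depend on the scaling between libraries. PARP2 had 0.0964 counts per count of PARP1 in LNCaP (0.0915 to 0.102) and 0.0778 in LN-OlapR (0.0730 to 0.0829). The same ratio was 0.0634 (0.0590 to 0.0682) for C4-2B, against 0.0548 (0.0504 to 0.0595) for its subline. The intervals of the LN pair do not meet, whereas those of the 2B pair overlap slightly. Overlap of 2 such intervals does not show that the ratios are equal, and no interval of their difference was computed. PARG per count of PARP1 was 0.0760 (0.0717 to 0.0806) in LNCaP and 0.0646 (0.0603 to 0.0692) in LN-OlapR, and 0.0715 (0.0667 to 0.0765) and 0.0679 (0.0630 to 0.0732) in C4-2B and 2B-OlapR, which overlap. HPF1 per count of PARP1 was 0.0259 in LNCaP and 0.0210 in LN-OlapR, and 0.0151 in C4-2B against 0.0161 in 2B-OlapR. PARP3 per count of PARP1 was 0.0204, 0.0190, 0.0168 and 0.0170 in the same order. For both genes the intervals overlapped within each pair.

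The RefSeq promoters of PARP1 and PARP2 are shown because both targets of olaparib were lower in 2B-OlapR, and because their starts differ in make-up. Each run holds the 250 bases before the RefSeq start of the gene, 5′ to 3′ on the gene's strand in GRCh38.p14. The windows are chr1:226408094-226408343 on the minus strand for PARP1 and chr14:20343385-20343634 on the plus strand for PARP2. RefSeq starts differ from the GENCODE starts given above, and the PARP2 window ends past the GENCODE start of that gene. Capitals mark matches, on either strand, to the 5 motifs searched. These were CCAAT, bound by NF-Y, then GGGCGG, bound by SP1 and its relatives, and CCGGAAG, bound by ETS factors. Also searched were TTTGGCG, bound by E2F factors, and the motif GCATGCGC, bound by NRF1.
PARP1: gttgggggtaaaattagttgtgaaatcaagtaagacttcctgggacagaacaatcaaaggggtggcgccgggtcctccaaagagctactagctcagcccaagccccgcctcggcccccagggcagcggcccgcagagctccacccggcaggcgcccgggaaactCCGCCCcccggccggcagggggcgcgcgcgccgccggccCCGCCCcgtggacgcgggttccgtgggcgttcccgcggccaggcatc
PARP2: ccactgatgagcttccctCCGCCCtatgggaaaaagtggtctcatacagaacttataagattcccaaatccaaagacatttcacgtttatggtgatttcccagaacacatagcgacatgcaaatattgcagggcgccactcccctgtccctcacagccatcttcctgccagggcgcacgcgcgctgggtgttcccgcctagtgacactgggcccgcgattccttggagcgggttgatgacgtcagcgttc
The PARP1 window is 70.4% G and C and holds GGGCGG 2 times on the reverse strand, starting 47 and 86 bases before the start of the gene. The PARP2 window is 54.4% G and C and holds it 1 time, also on the reverse strand, 232 bases before the start. A match is a description of letters, not a bound site.

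Among 10 genes of base excision and single-strand break repair, the median log2 ratio was -0.11 (quartiles -0.24 and 0.12) in the LN pair and -0.07 (quartiles -0.29 and 0.33) in the 2B pair, with 4 and 5 of 10 higher in the resistant line. The shares of all genes that were higher were 49.6% and 50.0%. The ligases went apart. LIG1, the ligase of replication and long-patch repair, had 35.2 normalized CPM in LNCaP and 43.6 in LN-OlapR, and 30.4 in C4-2B against 39.4 in 2B-OlapR, so that both resistant lines were above both parents. On the log2 scale the ratio was 0.31 (0.18 to 0.44) in the LN pair and 0.37 (0.22 to 0.52) in the 2B pair. LIG3, the ligase that works with XRCC1, was at 89.6 (LNCaP) and 82.2 (C4-2B) normalized CPM in the parents, above the 73.6 of LN-OlapR and the 64.5 of 2B-OlapR. Its log2 ratio was -0.28 (-0.37 to -0.19) in the LN pair and -0.35 (-0.45 to -0.25) in the 2B pair.

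XRCC1, the scaffold of single-strand break repair, stood apart in 2B-OlapR. It had 17.3 normalized CPM in LNCaP against 15.0 in LN-OlapR, and 17.2 in C4-2B against 24.7 in 2B-OlapR. On the log2 scale this was 0.52 (0.33 to 0.72) in the 2B pair, or 1.44-fold, and -0.20 in the LN pair, with an interval whose upper end was just below 0 and passed 0 with DESeq2 or upper quartile factors or a pseudocount of 2. Per count of LIG3, XRCC1 had 0.193 (0.175 to 0.213) counts in LNCaP, 0.204 (0.182 to 0.229) in LN-OlapR and 0.209 (0.186 to 0.234) in C4-2B, but 0.382 (0.345 to 0.424) in 2B-OlapR. The 3 other lines were alike in this ratio within counting error, and 2B-OlapR lay above them.

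APEX1, the endonuclease that cuts the strand at a site without a base, had 327 normalized CPM in LNCaP against 298 in LN-OlapR, and 229.9 in C4-2B against 152 in 2B-OlapR. It was the member of this group with the lowest log2 ratio in the 2B pair, -0.60 (-0.67 to -0.54), or 1.52-fold lower, and in the LN pair it had -0.14 (-0.18 to -0.09). APEX1 passed the 1.5-fold limit narrowly, and with upper quartile factors its 2B value of -0.58 no longer did. Scaled by total counts, its LN value was -0.22. PIP4P1, which overlaps APEX1 on the other strand in GENCODE, was lower as well, with log2 ratios of -0.27 (LN) and -0.46 (2B). Whether the counting used strand is not stated, so reads of such genes cannot be told apart with certainty. FEN1, the flap endonuclease of replication and long-patch repair, had 157 and 149 normalized CPM in LNCaP and LN-OlapR, and 177 and 234 in C4-2B and 2B-OlapR. The log2 ratio of this gene was -0.08 (-0.14 to -0.01) in the LN pair, or -0.16 scaled by total counts, and 0.40 (0.34 to 0.47) in the 2B pair.

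TDP1, which clears topoisomerase I and other adducts from the end of a strand, had 71.5 normalized CPM in LNCaP against 58.3 in LN-OlapR, and 37.9 in C4-2B against 30.8 in 2B-OlapR. The step from parent to resistant line was -0.30 on the log2 scale in both pairs, from -0.40 to -0.19 in the LN pair and from -0.45 to -0.15 in the 2B pair. CHD1L, a chromatin remodeller switched on by ADP-ribose chains, went apart, with 42.1 and 51.9 normalized CPM in LNCaP and LN-OlapR and 44.5 and 36.9 in C4-2B and 2B-OlapR. The glycosylases UNG, which removes uracil, and OGG1, which removes oxidised guanine, stayed within 1.16-fold in each pair. OGG1 had a log2 ratio of 0.14 (-0.01 to 0.29) in the LN pair and 0.21 (0.06 to 0.36) in the 2B pair. UNG had 0.05 (-0.04 to 0.13) in the LN pair and -0.17 (-0.26 to -0.08) in the 2B pair. POLB, the polymerase that fills the gap, had 14.2 to 17.0 normalized CPM, with -0.26 (-0.46 to -0.05) in the LN pair and 0.03 (-0.19 to 0.25) in the 2B pair.

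**Figure D2:**
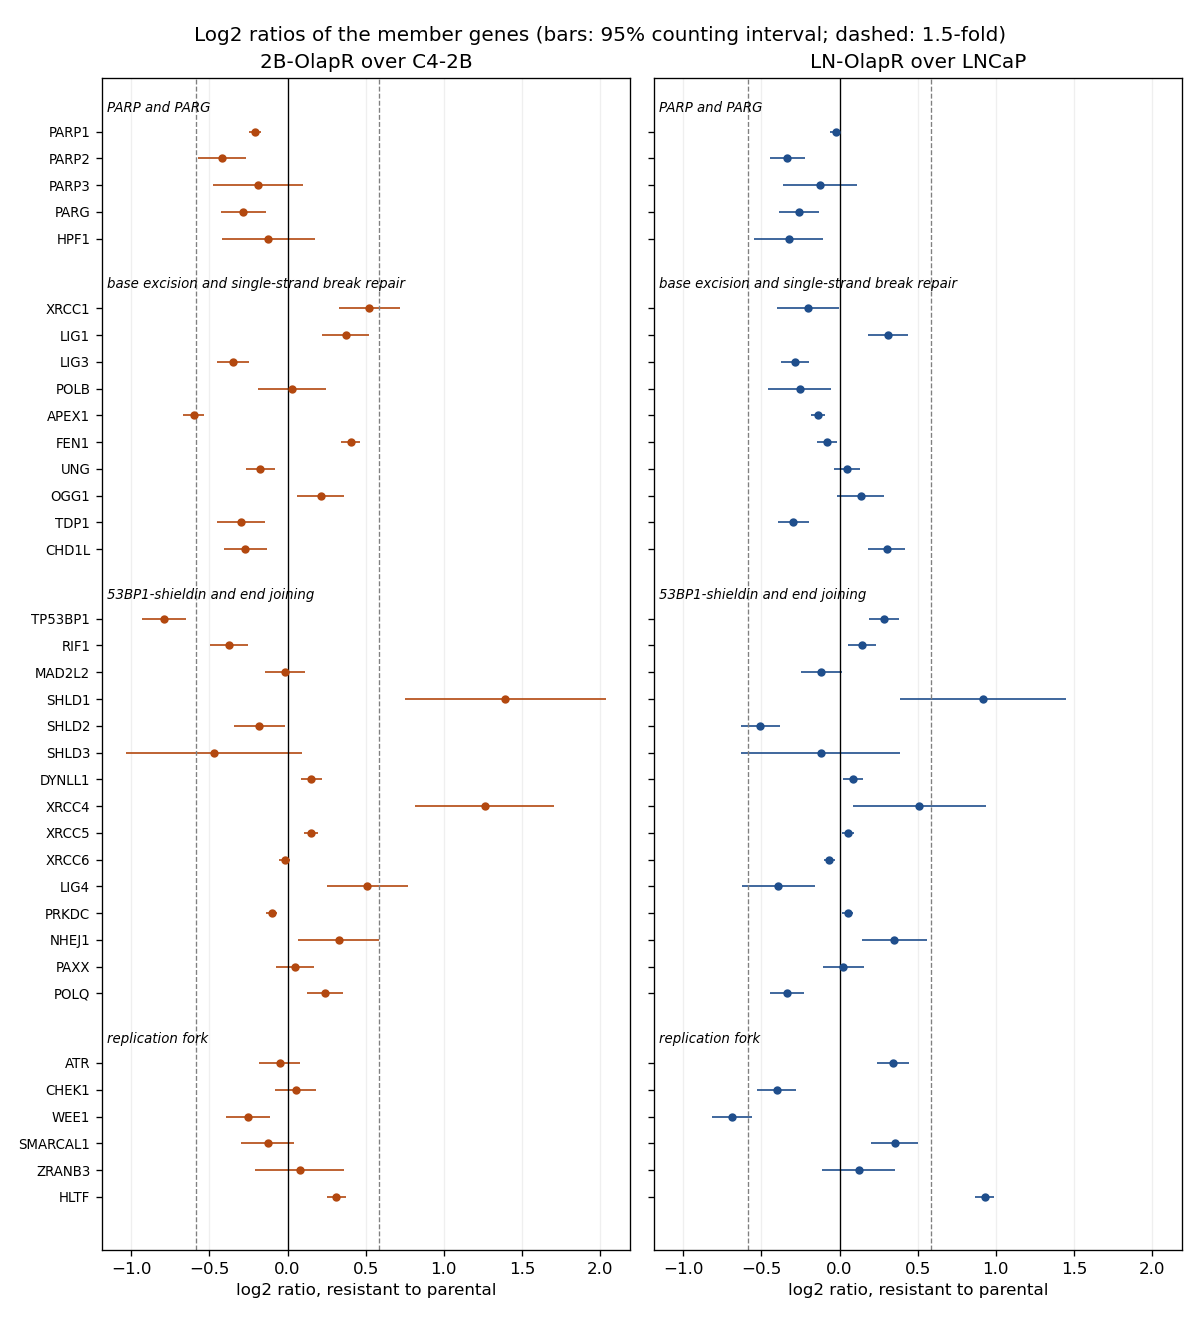
Log2 ratio, resistant over parental, for each member, for the 2B pair (left) and the LN pair (right). Bars are 95% counting intervals and dashed lines mark 1.5-fold. SHLD1 and XRCC4 lie past the upper line in the 2B pair and TP53BP1 and, narrowly, APEX1 past the lower, while SHLD1 and HLTF lie past the upper line and WEE1 past the lower in the LN pair.

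The genes TP53BP1 and RIF1 had ratios of opposite sign in the 2 pairs, a difference that could not be tested with 1 library per line. TP53BP1, which encodes 53BP1, the protein that holds broken ends back from resection, had 61.2 normalized CPM in LNCaP against 74.5 in LN-OlapR, and 53.4 in C4-2B against 30.8 in 2B-OlapR. The lowest level was thus that of 2B-OlapR and the highest that of the other resistant line. The log2 ratio was -0.79 (-0.93 to -0.65) in the 2B pair, or 1.73-fold lower, with 8.51% of analysed genes lower still, and 0.28 (0.19 to 0.38) in the LN pair. RIF1, which binds phosphorylated 53BP1, had 74.7, 82.4, 59.9 and 46.3 normalized CPM in LNCaP, LN-OlapR, C4-2B and 2B-OlapR. On the log2 scale the ratio was 0.14 (0.05 to 0.23) in the LN pair and -0.37 (-0.49 to -0.25) in the 2B pair, the same signs as TP53BP1 with smaller sizes. Scaled by total counts, the LN value of RIF1 was 0.06 (-0.03 to 0.15). NEB, which overlaps RIF1 on the other strand, held 26 to 61 counts per library beside 959 to 2007 for RIF1, and had log2 ratios of 1.12 (LN) and -1.18 (2B). TP53BP1 per count of RIF1 was 0.665 (0.602 to 0.735) in 2B-OlapR and 0.891 (0.821 to 0.966) in C4-2B, whose intervals do not meet. TUBGCP4, which overlaps TP53BP1 on the other strand, had log2 ratios of 0.059 (LN) and -0.081 (2B).

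Of the shieldin subunits, which act after RIF1, SHLD1 was low in all lines and higher in both resistant ones. It held 45 counts in LNCaP against 74 in LN-OlapR, and 26 in C4-2B against 70 in 2B-OlapR, or 1.67, 3.17, 1.27 and 3.38 normalized CPM. Both resistant lines were above both parents, with 1 library per line. The log2 ratio was 0.92 (0.38 to 1.45) in the LN pair and 1.39 (0.75 to 2.04) in the 2B pair, above 94.6% and 97.5% of analysed genes. SHLD2 went the other way, with 51.1 normalized CPM in LNCaP and 36.01 in LN-OlapR, and 31.3 in C4-2B against 27.6 in 2B-OlapR. Its log2 ratio was -0.51 (-0.63 to -0.38) in the LN pair and -0.18 (-0.34 to -0.02) in the 2B pair. Its 3 pseudogenes held at most 27 counts in a library. SHLD1 per count of SHLD2 was 0.0327 (0.0243 to 0.0440) in LNCaP and 0.0881 (0.0695 to 0.112) in LN-OlapR, and 0.0406 (0.0274 to 0.0601) in C4-2B against 0.122 (0.0955 to 0.157) in 2B-OlapR. SHLD3 held 43 to 69 counts per library and overlaps TRAPPC13 on the same strand, and its interval included 0 in both pairs. MAD2L2, the remaining shieldin subunit, also known as REV7, had 36.6 to 47.7 normalized CPM, with intervals that included 0 in both pairs, except in the LN pair when scaled by total counts, at -0.20 (-0.33 to -0.07). DYNLL1, a dynein light chain that binds 53BP1 and limits resection, had log2 ratios of 0.15 (0.08 to 0.22) and 0.09 (0.02 to 0.15) in the 2B and LN pairs. Scaled by total counts, the LN value of DYNLL1 was 0.00086 (-0.063 to 0.065).

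**Figure D3:**
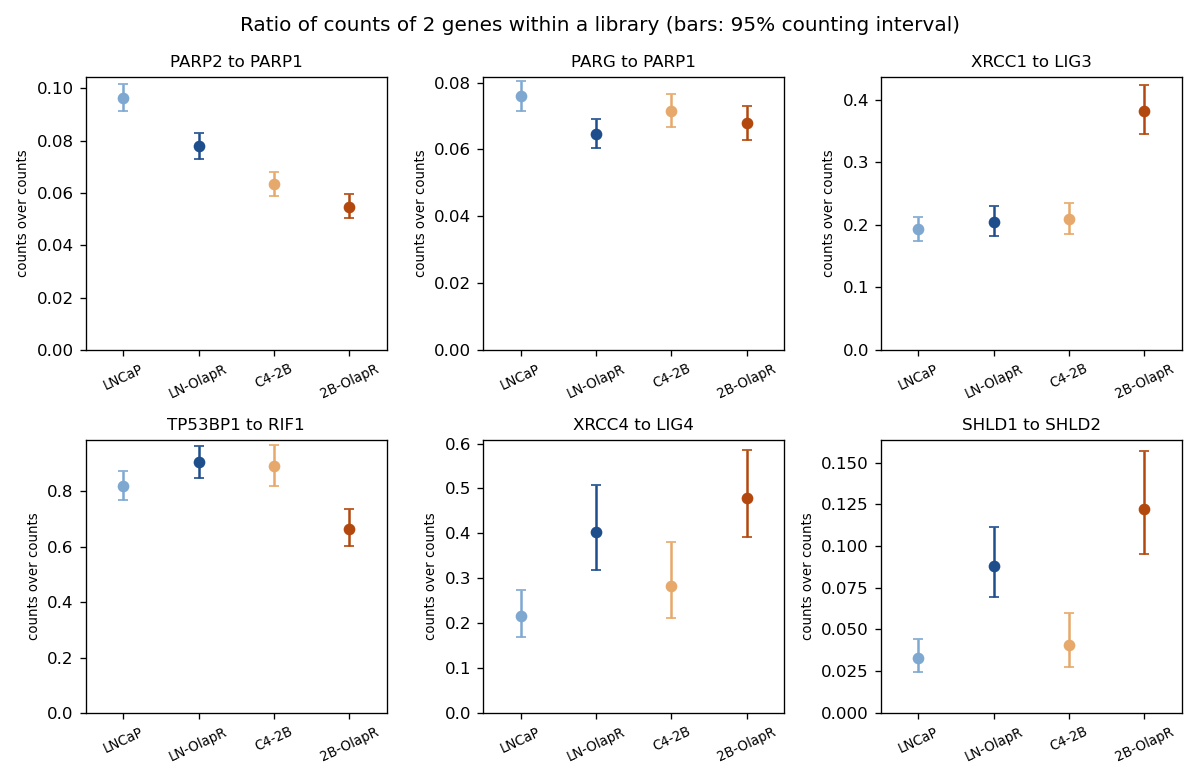
Ratio of the counts of 2 genes within each library, on a linear axis from 0, with 95% counting intervals and 1 point per cell line. XRCC4 to LIG4 and SHLD1 to SHLD2 are higher in both resistant lines than in both parents, while XRCC1 to LIG3 and TP53BP1 to RIF1 set 2B-OlapR apart from the other 3 lines.

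Among the genes of classical end joining, XRCC4, the partner that stabilises ligase IV, stood out. It held 80 counts in LNCaP against 99 in LN-OlapR, and 57 in C4-2B against 139 in 2B-OlapR, or 2.98, 4.24, 2.79 and 6.71 normalized CPM, so both resistant lines were above both parents. The log2 ratio was 1.26 (0.82 to 1.70) in the 2B pair, or 2.40-fold, and 0.51 (0.09 to 0.93) in the LN pair. TMEM167A, which overlaps XRCC4 on the other strand, held 1049 to 1749 counts per library and had log2 ratios of 0.21 (LN) and 0.63 (2B), the same signs as XRCC4. A small share of its reads counted for XRCC4 would be large beside the 57 to 139 counts of that gene, and the part of such reads in its ratios was not tested. LIG4, ligase IV itself, had 13.8 normalized CPM in LNCaP and 10.55 in LN-OlapR, and 9.82 in C4-2B against 14.0 in 2B-OlapR. The log2 ratio of this gene was -0.39 (-0.62 to -0.16) in the LN pair and 0.51 (0.25 to 0.77) in the 2B pair. XRCC4 per count of LIG4 was 0.215 (0.169 to 0.274) in LNCaP and 0.402 (0.319 to 0.508) in LN-OlapR, and 0.284 (0.211 to 0.381) in C4-2B against 0.479 (0.392 to 0.587) in 2B-OlapR. The lower LIG4 of LN-OlapR adds to the higher ratio there, whereas in the 2B pair both genes were higher. NHEJ1, which encodes the XLF protein that bridges ends with XRCC4, had log2 ratios of 0.33 (0.07 to 0.59) and 0.35 (0.14 to 0.56) in the 2B and LN pairs, from 13.3, 16.9, 10.46 and 13.1 normalized CPM in LNCaP, LN-OlapR, C4-2B and 2B-OlapR.

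The promoters of XRCC4 and TP53BP1 are shown because these members had the highest and the lowest log2 ratios in the 2B pair among those matched in the promoter table. The runs hold 250 bases at chr5:83077297-83077546 on the plus strand for XRCC4 and chr15:43510641-43510890 on the minus strand for TP53BP1, in GRCh38.p14, with capitals for the same motifs as above.
XRCC4: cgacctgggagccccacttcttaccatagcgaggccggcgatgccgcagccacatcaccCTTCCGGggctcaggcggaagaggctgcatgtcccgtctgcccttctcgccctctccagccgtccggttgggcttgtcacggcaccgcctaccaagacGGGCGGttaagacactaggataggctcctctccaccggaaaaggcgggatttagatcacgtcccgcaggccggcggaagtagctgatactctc
TP53BP1: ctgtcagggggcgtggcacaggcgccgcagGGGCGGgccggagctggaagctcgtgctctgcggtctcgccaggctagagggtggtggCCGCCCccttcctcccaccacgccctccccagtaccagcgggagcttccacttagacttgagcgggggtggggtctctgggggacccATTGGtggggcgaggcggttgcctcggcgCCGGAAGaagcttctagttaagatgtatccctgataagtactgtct
The XRCC4 window holds CCGGAAG 191 bases before the start on the reverse strand, and GGGCGG at 93. The TP53BP1 window holds CCAAT at 75 on the reverse strand, CCGGAAG at 46, and GGGCGG at 220 and, on the reverse strand, at 162. These distances are from RefSeq starts, and both windows end past the GENCODE start of the gene given above. The TP53BP1 matches at 75 and 46 therefore lie within the gene as placed in GENCODE. RefSeq promoters were matched for 31 of the 37 listed genes, among them SLFN11, which was not analysed for expression. They had 46 entries, since some genes have more than 1. GGGCGG was found in 76.1% of these entries and in 42.6% of all 35116 promoters of the table. CCGGAAG was found in 28.3% of the entries and 8.52% of all promoters, and CCAAT in 47.8% and 32.0%. GCATGCGC was found in 6.52% and 2.63%. TTTGGCG was in 0 of the 46 entries and 1.59% of all promoters. The promoters of the table were not matched to these entries in G and C content or in expression, and the differences in share were not tested. No matches overlapped in the windows shown.

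The abundant end joining genes had small ratios. XRCC6 and XRCC5 encode Ku70 and Ku80, the ring that first binds a broken end, and PRKDC encodes the kinase it recruits. XRCC6 had 524, 501, 601 and 593 normalized CPM in LNCaP, LN-OlapR, C4-2B and 2B-OlapR, and log2 ratios of -0.07 (-0.10 to -0.03) in the LN pair and -0.02 (-0.06 to 0.02) in the 2B pair. Scaled by total counts these were -0.15 (-0.19 to -0.12) and -0.06 (-0.10 to -0.02). Its pseudogene XRCC6P2 held 374 to 579 counts per library beside 11679 to 14098 for XRCC6, so part of these reads is uncertain. XRCC5 had 356 to 416 normalized CPM and log2 ratios of 0.06 (0.02 to 0.10) in the LN pair and 0.15 (0.10 to 0.19) in the 2B pair. PRKDC had 522, 542, 727 and 677 normalized CPM in the same order, with log2 ratios of 0.05 (0.02 to 0.09) in the LN pair and -0.10 (-0.14 to -0.07) in the 2B pair. In the LN pair the signs of XRCC5 and PRKDC turned with scaling by total counts. PAXX, a further Ku-binding factor, had log2 ratios of 0.03 (-0.10 to 0.15) in the LN pair and 0.05 (-0.07 to 0.17) in the 2B pair. POLQ, the polymerase of the alternative, microhomology-mediated route, had 61.9 and 49.1 normalized CPM in LNCaP and LN-OlapR and 53.6 and 63.2 in C4-2B and 2B-OlapR, or -0.33 (-0.44 to -0.22) in the LN pair and 0.24 (0.12 to 0.35) in the 2B pair on the log2 scale. Over all 15 members of 53BP1-shieldin and end joining, the median log2 ratio was 0.05 in each pair, with 9 of 15 higher in the LN pair and 8 of 15 in the 2B pair. Of all genes, 49.6% and 50.0% were higher in these pairs.

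Of 6 fork genes, HLTF, a translocase that reverses forks, was higher in both resistant lines. It had 134 normalized CPM in LNCaP and 254 in LN-OlapR, and 184 in C4-2B against 228 in 2B-OlapR. This gave a log2 ratio of 0.93 (0.87 to 0.99) in the LN pair, or 1.90-fold, above 94.8% of analysed genes, and 0.31 (0.25 to 0.37) in the 2B pair. HLTF-AS1 overlaps it on the other strand, so the source of some reads is uncertain. The other fork-reversing translocases differed less. SMARCAL1 had 24.8 and 31.8 normalized CPM in LNCaP and LN-OlapR and 28.7 and 26.3 in C4-2B and 2B-OlapR, with log2 ratios of 0.35 (0.20 to 0.51) and -0.13 (-0.30 to 0.04) in the LN and 2B pairs. ZRANB3 had 9.29 to 12.3 normalized CPM, and its interval included 0 in both pairs.

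The checkpoint kinases of the fork had their larger ratios in the LN pair. WEE1, which holds back CDK1 and CDK2, had 53.2 normalized CPM in LNCaP and 33.1 in LN-OlapR, and 44.5 in C4-2B against 37.3 in 2B-OlapR, so both resistant lines were below both parents. On the log2 scale the ratio was -0.69 (-0.81 to -0.56) in the LN pair, or 1.61-fold lower, and -0.25 (-0.39 to -0.12) in the 2B pair. CHEK1, which encodes the kinase CHK1, had 47.9 and 36.3 normalized CPM in LNCaP and LN-OlapR, with a log2 ratio of -0.40 (-0.53 to -0.28), and 43.5 and 45.1 in C4-2B and 2B-OlapR, with 0.05 (-0.08 to 0.18). ATR, the kinase upstream of CHK1, was higher in LN-OlapR, at 67.3 normalized CPM against 53.05 in LNCaP, a log2 ratio of 0.34 (0.24 to 0.45). In the 2B pair ATR had 43.8 against 45.3 normalized CPM, a log2 ratio of -0.05 (-0.18 to 0.08). The median of the 6 fork genes was 0.23 in the LN pair and 0.00 in the 2B pair.

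Across both pairs, which share no library, 10 members were higher in both resistant lines, 13 were lower in both and 13 had opposite signs. Among the 14602 genes analysed in both pairs, 28.5% were higher in both, 29.1% lower in both and 42.4% opposite. Over the 36 members the ratios in the pairs, on the log2 scale, showed a Pearson correlation of 0.452 and a Spearman correlation of 0.301, both across genes, which are not independent replicates, and over all 14602 genes the Spearman correlation was 0.196. Under each of the scalings, pseudocounts and filters tried in which they were analysed, 11 members were lower in both pairs, namely APEX1, HPF1, LIG3, PARG, PARP1, PARP2, PARP3, SHLD2, SHLD3, TDP1 and WEE1. Another 8 were higher in both under each of them, namely DYNLL1, HLTF, LIG1, NHEJ1, OGG1, SHLD1, XRCC4 and ZRANB3. Several of these had intervals that include 0 in at least 1 pair, as given above. The share of all genes that kept 1 sign in both pairs under every setting was not computed. Under the main setting alone, 29.1% of the 14602 genes were lower in both and 28.5% higher in both, so these counts are not read as a trait of the members. The difference between the pairs, 2B minus LN, had a counting interval that excluded 0 for 19 of 36 members, beside 59.4% of the 14602 genes. Opposite signs with an interval past 0 in each pair were found for 8 of 36 members and for 16.3% of those genes. The difference was -1.08 (-1.25 to -0.91) for TP53BP1, the member with the widest gap, 0.90 (0.55 to 1.25) for LIG4 and 0.72, with the interval reaching from 0.44 to 1.003, for XRCC1.

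**Figure D4:**
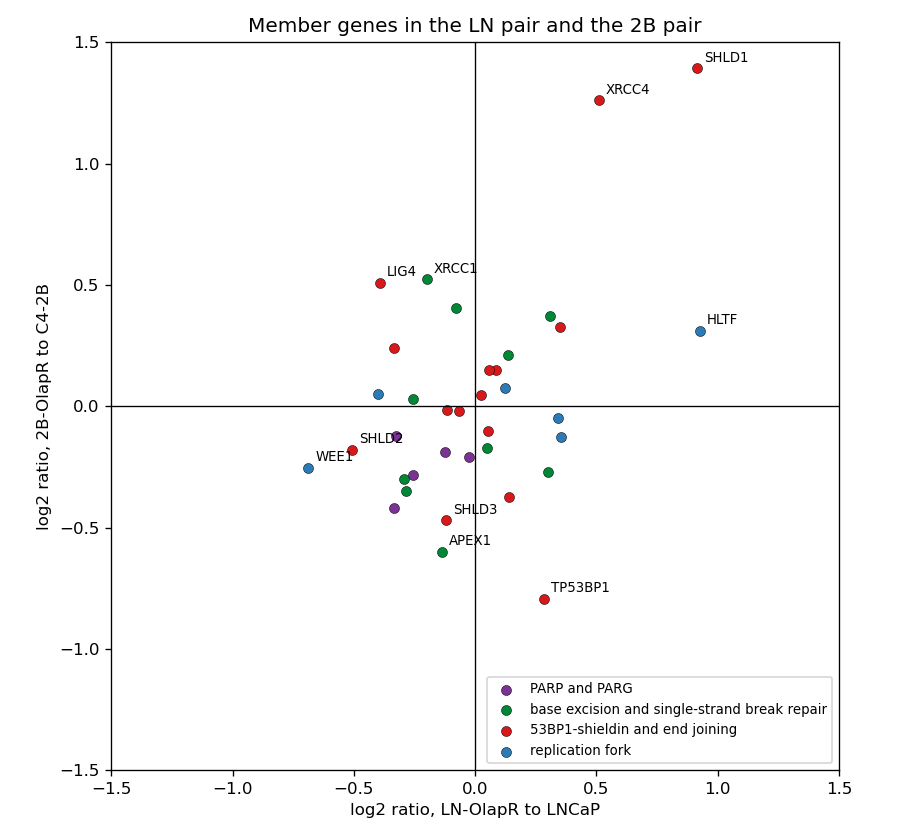
Log2 ratio of each of the 36 members in the LN pair (x axis) and the 2B pair (y axis), coloured by role and without error bars. SHLD1, XRCC4 and HLTF lie in the upper right, the PARP and PARG genes lie in the lower left, and TP53BP1 lies in the lower right.

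Many repair genes are made mainly in S phase, so genes of the cell cycle were read beside them. For 20 S phase genes the median log2 ratio was 0.31 (quartiles 0.048 and 0.47) in the 2B pair, with 16 of 20 higher, from -0.38 for TYMS to 0.81 for E2F1. In the LN pair it was 0.05 (quartiles -0.20 and 0.26), with 12 of 20 higher, from -0.77 for CDC45 to 0.41 for MCM7. For 20 genes of G2 and M phase the median was 0.15 (quartiles 0.0081 and 0.37) in the 2B pair, from -1.24 for CENPE to 0.54 for KIF11, and -0.11 (quartiles -0.23 and 0.021) in the LN pair, from -0.42 for CCNA2 to 0.26 for AURKB. The part of cycling in the members was not tested.

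The rest of each pathway was read from lists of genes that are not members, of which 82 passed the filter in each pair. Their median log2 ratio was 0.0066 in the LN pair and -0.00049 in the 2B pair, with 41 and 40 of 82 higher, close to the shares of all genes. In the 2B pair 4 of 82 were at least 1.5-fold higher and 6 lower, where 10.7% and 13.5% of all genes were. In the LN pair 4 were higher and 4 lower by that much, beside 10.6% and 10.8% of all genes. Among other genes of ADP-ribose, PARP10 was highest in the 2B pair, at 0.73 (0.64 to 0.81), and PARP11 lowest, at -0.93 (-1.28 to -0.58), whereas PARP11 was highest in the LN pair, at 0.82 (0.55 to 1.08). PARP14, a mono-ADP-ribosyltransferase induced by interferon, was lowest in the LN pair, at -2.30 (-3.13 to -1.46), with 76 counts in LNCaP against 13 in LN-OlapR. Among other base excision genes, PCNA, the sliding clamp, was highest in the 2B pair at 0.70 (0.63 to 0.76) and TDG, a thymine glycosylase, lowest at -0.54 (-0.64 to -0.43). MBD4, another thymine glycosylase, was highest in the LN pair at 0.68 (0.55 to 0.82) and NEIL3 lowest at -0.74 (-1.03 to -0.45). Among other end joining genes, STN1, part of the complex that fills resected ends together with shieldin, was highest in the 2B pair at 0.93 (0.73 to 1.14), and RNF8, a ubiquitin ligase upstream of 53BP1, lowest at -0.28 (-0.48 to -0.09). In the LN pair PAXIP1, a partner of 53BP1, was highest at 0.48 (0.36 to 0.61) and the kinase ATM lowest at -0.40 (-0.52 to -0.27). Among other fork genes, RAD1, of the checkpoint clamp, was highest in the 2B pair at 0.52 (0.39 to 0.65) and WDHD1, a replisome adaptor, lowest at -0.88 (-1.03 to -0.72). In the LN pair RADX was highest, at 1.18 (0.35 to 2.01) from 17 and 34 counts, and SLFN5 lowest, at -0.54 (-0.68 to -0.40).

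Between the parental lines, C4-2B against LNCaP, a comparison that shares a library with each pair, 13 of 36 members were higher in C4-2B, where 48.6% of 15580 genes were higher. The median log2 ratio of members was -0.13 (quartiles -0.30 and 0.17), beside -0.016 for all genes. None of the members, a count of 0, passed 1.5-fold upwards and 3 passed it downwards, where 16.1% of all genes were higher and 16.1% lower by that much. These 3 were TDP1 with -0.91 (-1.03 to -0.79), HPF1 with -0.73 (-0.98 to -0.48) and SHLD2 with -0.71 (-0.84 to -0.57). PARP2 had -0.56 (-0.69 to -0.44), APEX1 -0.51 (-0.56 to -0.46) and LIG4 -0.49 (-0.74 to -0.25). PAXX and PRKDC were the members with the highest ratios, at 0.51 (0.38 to 0.63) and 0.48 (0.44 to 0.51). For TDP1, HPF1, SHLD2, PARP2, PAXX and PRKDC the ratios of the parental lines were thus larger in size than those of either pair. For HPF1, SHLD2 and PARP2 the parental interval overlapped that of a pair, and no interval of the difference was computed. For APEX1 and LIG4 the parental ratios were not the larger, by a narrow margin. Nor were they for SHLD1 and XRCC4, which had -0.39 (-1.08 to 0.30) and -0.09 (-0.58 to 0.40). GC content of the longest transcript moved with this comparison, with a Spearman correlation of 0.360 to the log2 ratio across 15055 genes and 0.359 across the 36 members. In the 2B and LN pairs it was 0.0913 and 0.154 over all genes and 0.159 and 0.203 over the members, and its part in the results was not tested. Length of the longest transcript had a Spearman correlation of -0.179 over all genes and -0.0350 over the members between the parental lines. In the 2B and LN pairs the values for length were -0.0631 and -0.0421 over all genes and -0.159 and 0.0010 over the members. The part of length was not tested either.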

How the data were processed

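A stranded mRNA kit was used on 100 ng of total RNA, giving 1 library for each of 4 lines. The values deposited by the authors are estimated counts for each gene, not scaled between libraries, whereas whole counts had been assumed when the tests were chosen. The submitters' processing notes name STAR, Partek and GRCh38 (hg38), with no versions. The counting tool, its use of strand and the annotation are not given in the sources used here. Each of the 22637 genes sums to at least 10, and 46.2% of the values are not whole.

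Values were rounded to whole counts and scaled with TMM factors from edgeR 4.0.16 in R 4.3.3, computed on all 4 libraries. Log2 ratios used a pseudocount of 0.5 with 95% normal intervals from the counts, over genes whose mean in the compared libraries reached 1 normalized CPM. Ratios of 2 genes within a library have 95% intervals from their counts. With 1 library per line no model was fitted and no replicate could be left out. Scripts in Python 3.11.15 were tested on simulated data. Positions and lengths came from GENCODE release 29, also on GRCh38, matched by identifier without version. Promoters came from RefSeq on GRCh38.p14.

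The members and lists were chosen with earlier results of these data known. All members are named, and of each other repair or cell cycle list the genes with the highest and the lowest ratio per pair. The overlapping genes and pseudogenes, and RADX in the 2B pair, TNKS2, NAMPT, TRIP13, SLFN13 and CENPF, were named after their values were seen. Alternatives were scaling by total counts, DESeq2 1.42.0 size factors or upper quartile factors, a larger pseudocount (2), a filter at 0.1 or at 10 normalized CPM, and counts left unrounded. Some luminal marker genes are not reported here.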

Additional observations from a re-analysis of the deposited data

Results flagged for a closer look

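The log2 ratios of 8 members had opposite signs in the 2 pairs, with counting intervals that excluded 0 in each, as did 16.3% of the 14602 genes analysed in both pairs, and the difference between the pairs was not tested, since each line has 1 library. The ratio of the 2B pair minus that of the LN pair was 0.72 for XRCC1, 0.48 for FEN1, 0.90 for LIG4 and 0.57 for POLQ, each above its parent in 2B-OlapR and below its parent in LN-OlapR. It was -0.57 for CHD1L, -1.08 for TP53BP1, -0.51 for RIF1 and -0.15 for PRKDC, each below its parent in 2B-OlapR and above it in LN-OlapR. With scaling by total counts, PRKDC was lower in both resistant lines and the LN interval of RIF1 held 0, and the LN interval of XRCC1 held 0 with DESeq2 or upper quartile factors or a pseudocount of 2.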

How the results depend on the processing

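No paired analysis was possible because each cell line has 1 library, and for the same reason no replicate could be left out. Under 7 alternatives, the median of the members lay between -0.13 and -0.04 in the LN pair, and between -0.08 and -0.01 in the 2B pair. Scaling by total counts, which moved the median of all genes to -0.088 in the LN pair and -0.042 in the 2B pair, gave 2 members at least 1.5-fold lower in the LN pair in place of 1 (SHLD2 was added), and turned the LN pair's log2 ratios of XRCC5 to -0.028 and of PRKDC to -0.032. In all it changed whether the counting interval held 0 for 6 members in the LN pair (PARP1, RIF1, MAD2L2, DYNLL1, XRCC5 and PRKDC) and 2 in the 2B pair (XRCC6 and SMARCAL1). With upper quartile factors 1 member of the 2B pair was at least 1.5-fold lower in place of 2, since APEX1 was at -0.58, and the 2B interval of SHLD2 and the parental interval of CHEK1 held 0. A minimum mean of 10, which leaves out SHLD1 and XRCC4, gave 1 member at least 1.5-fold higher in the LN pair and 0 in the 2B pair, in place of 2 in each. Depth limits SHLD1, SHLD3 and XRCC4, which held 26 to 139 counts per library.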

Other observations

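Some genes near the members that the text above does not describe stood out once their values were seen. RADX, a protein that binds single-stranded DNA at forks and limits their remodelling, held 1 count in C4-2B and 37 in 2B-OlapR, a log2 ratio of 4.63 (2.27 to 6.98), and it was under the filter in that pair. TRIP13, the ATPase that takes shieldin apart by remodelling MAD2L2, had 57.1 normalized CPM in C4-2B against 96.6 in 2B-OlapR, a log2 ratio of 0.76 (0.65 to 0.86), while in the LN pair it had 60.0 and 59.8. TNKS2, a tankyrase, had 64.1 normalized CPM in LNCaP and 33.7 in LN-OlapR, a log2 ratio of -0.93 (-1.05 to -0.81), and 78.3 and 80.8 in C4-2B and 2B-OlapR.

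NAMPT, the enzyme that recycles nicotinamide into the NAD that PARPs consume, had 71.0 normalized CPM in LNCaP and 113 in LN-OlapR, and 133 in C4-2B against 79.6 in 2B-OlapR. Its log2 ratio was 0.67 (0.59 to 0.76) in the LN pair and -0.74 (-0.82 to -0.65) in the 2B pair, and the difference was not tested. SLFN13, a relative of SLFN11, held 0 counts in LNCaP and LN-OlapR, which allows up to 0.112 and 0.129 normalized CPM, and 62 and 46 counts in C4-2B and 2B-OlapR. Within the G2 and M phase list, CENPE and CENPF, which encode large centromere proteins, were lower in 2B-OlapR, at -1.24 (-1.39 to -1.08) and -0.59 (-0.66 to -0.53), against a median of 0.15 for that list.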
